A study of Homo sapiens with 6 samples.

Results

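The 10 genes described here encode glioma growth factor receptors and ligands: the receptors EGFR, MET, PDGFRA, PDGFRB and AXL, and the ligands TGFA, HBEGF, NRG1, HGF and PDGFA. They were taken by gene symbol from the 19775 genes with a probe set on the array. Together they had 40 probe sets. The probe set with the highest mean over the 6 arrays stood for each gene, and the others served as a check. The RNA came from cultured human glioma cells in 3 groups of 2 arrays each. U87MGR was the highly invasive line and U87MGL the non-invasive line, both grown out of U87MG by 4 rounds of injection into the striatum of nude mice and return to culture. U87MG was the parental line, a long-established glioblastoma line that had not been passaged through brain. By the labels, the cells were kept in medium with serum, and no gene was deleted, added or silenced in any group. By their titles, the 2 arrays in each group are biological replicates. These titles number the lines behind the U87MGR arrays, and likewise those behind the U87MGL arrays, 2 and 3 without saying what the number marks, so the spread within these groups may include a difference between sublines. The p-values below measure only the spread between these samples.

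Receptor tyrosine kinases span the cell membrane, bind a growth factor outside the cell and phosphorylate tyrosines inside it, which recruits adaptors that feed the Ras and MAP kinase cascade and the PI3 kinase and AKT pathway. TGFA and HBEGF are membrane-anchored ligands of EGFR that are released by shedding proteases, and NRG1 binds the related receptors ERBB3 and ERBB4. HGF, or scatter factor, is the ligand of MET and drives cell motility. PDGFA dimers bind PDGFRA, whereas PDGFRB prefers PDGFB and marks pericytes and other mesenchymal cells. AXL binds GAS6. EGFR amplification, PDGFRA amplification and loops in which a cell makes both a ligand and its receptor are well known in glioblastoma.

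The deposited values are log2 signals, so a difference of 1 is a 2-fold difference in brightness; these are bulk RNA, in which fewer cells of a type and less RNA per cell cannot be told apart. Array medians lay between 5.29 and 5.35. The cells had the mesenchymal markers of this line, with VIM at 14.30 to 14.46 and CD44 at 12.96 to 13.30, while the astrocyte filament gene GFAP lay at 5.21 to 5.45. They belong to a list of 8 genes read for line identity, of which 7 were tested and not all were even across groups. Differences in that list ran from -0.84 to 1.18 in U87MGR against U87MG. In U87MGL against U87MG they ran from -0.85 to 1.14, and none reached a limma adjusted p under 0.05. Probe sets for spiked-in control RNA, which no cell contributes, parted the arrays into 3 batches: both U87MGL arrays with U87MGR replicate 1, U87MG replicate 1 with U87MGR replicate 2, and U87MG replicate 2 alone. Distances in these 21 probe sets were 0.682 to 1.05 within a batch and 4.12 to 6.40 between batches. Within-batch values can therefore be had in the comparisons of U87MGR with both other groups, whereas no batch holds both U87MGL and U87MG, and for them batch and group cannot be told apart. For actin, the 3′ signal less the 5′ signal, which grows as RNA degrades, was 0.25 to 0.39 in the derivatives and -0.01 and 0.22 in U87MG. For GAPDH it was 0.05 and 0.24 in U87MGR, 0.03 and 0.04 in U87MGL, and 0.05 and 0.07 in U87MG. Markers of host cells were also read. The host was mouse and the probe sets are annotated to human genes, and how far they read mouse RNA was not tested. Summed linear signals of 10 microglial markers, 5 of them below the filter on dim genes, were 433 to 434 in U87MGR, 453 to 471 in U87MGL and 475 to 539 in U87MG, and those of 7 astrocyte markers, 2 below it, were 3962 to 6868, 6338 to 8383 and 8335 to 8654 in the same order. Sums of 7 neuron markers, 1 below the filter, were 1193 to 1203 in U87MGR, 1174 to 1310 in U87MGL and 996 to 1091 in U87MG. Those of 7 oligodendrocyte lineage markers, 3 below it, were 1074 to 1289, 1066 to 1091 and 1100 to 1152 in the same order. Of the 5 astrocyte markers that could be tested, 1 was lower at a limma adjusted p under 0.05 in each comparison with U87MG. Of all tested genes, 1.44% were lower at that level in U87MGR and 1.8% in U87MGL. The lowest differences in that list were -1.40 in U87MGR against U87MG and -1.07 in U87MGL against U87MG. The microglial, neuron and oligodendrocyte lists had no such gene. The part of host cells in the results was not tested.

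**Figure D1:**
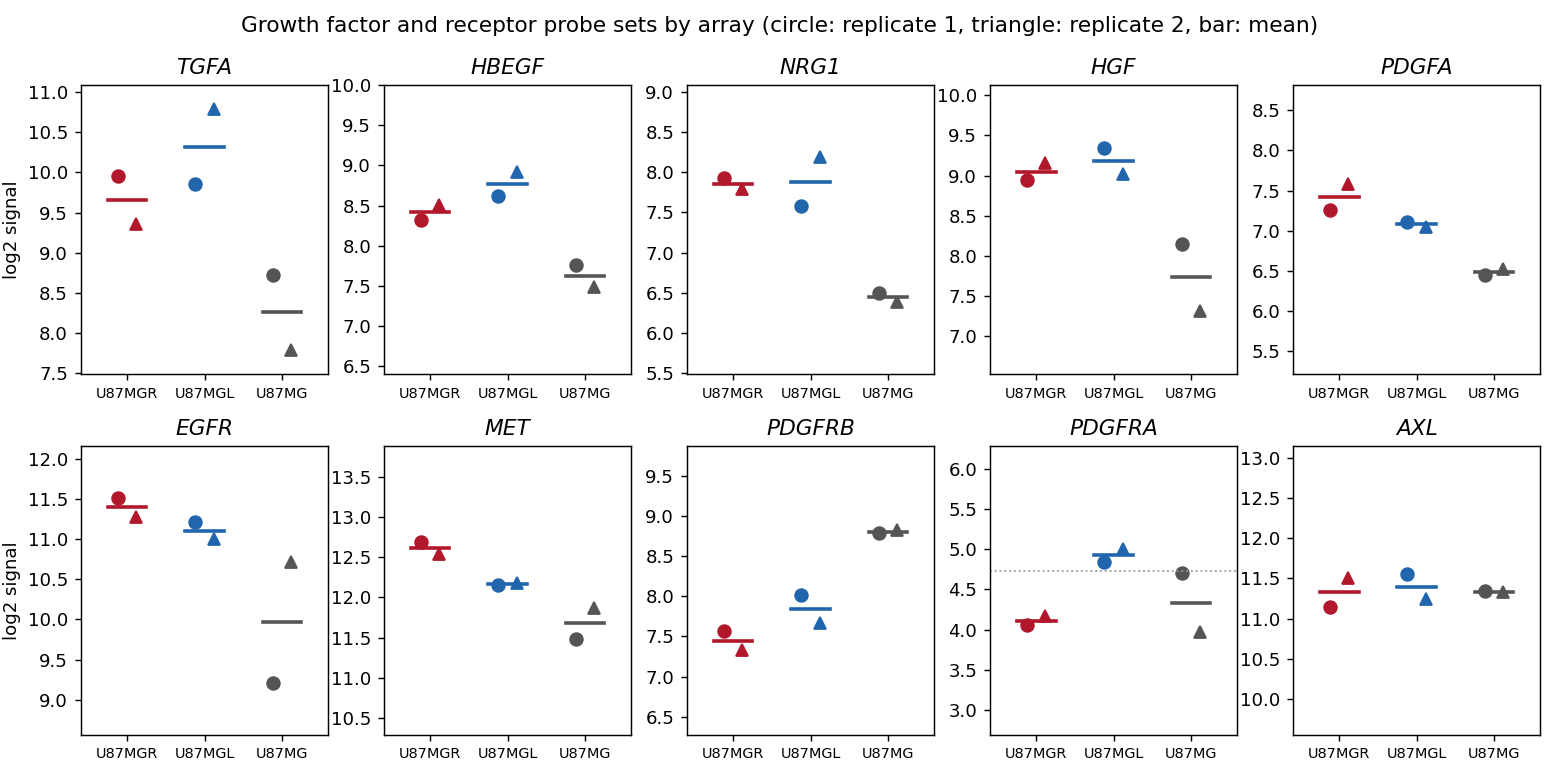
Log2 signal (vertical axis) of the brightest probe set of each of the 10 genes on each of the 6 arrays, by group, with U87MGR, U87MGL and U87MG from left to right. Points are arrays, with circles for replicate 1 and triangles for replicate 2, and bars are group means; the dotted line is the filter of 4.73. Signals of TGFA, HBEGF, NRG1, HGF, PDGFA, EGFR and MET lie higher on all 4 arrays of the derivatives than on both U87MG arrays, those of PDGFRB lie lower, and those of AXL overlap.

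All 3 ErbB ligands had higher signals on every derivative array than on the parental arrays, and the highest means of TGFA and HBEGF were in U87MGL. TGFA, the transforming growth factor alpha that activates EGFR, had log2 signals of 9.96 and 9.35 in U87MGR (replicates 1 and 2, the order kept throughout), 9.85 and 10.79 in U87MGL, and 8.72 and 7.79 in U87MG. Both derivatives lay above U87MG on every array and overlapped each other. TGFA rose by 2.06 (log2, standard error 0.41, 4.18-fold) in U87MGL against U87MG, with a limma adjusted p of 0.0411. The difference for U87MGR against U87MG was 1.40 (95% interval 0.42 to 2.38, limma adjusted p = 0.117), and within the shared batch it was 0.63. The other TGFA probe sets, 211258_s_at and 205015_s_at, gave 1.33 and 2.10 for U87MGL against U87MG. For U87MGR against U87MG they gave 0.72 and 0.91 over all arrays, but -0.22 and -0.20 within the shared batch. In U87MGR against U87MGL they gave -0.61 and -1.20, the latter without overlap.

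HBEGF, the heparin-binding EGF-like factor that binds EGFR and ERBB4, had log2 signals of 8.32 and 8.51 in U87MGR, 8.63 and 8.92 in U87MGL, and 7.76 and 7.48 in U87MG. The 3 groups did not overlap, with U87MGL highest. HBEGF rose by 1.15 (log2, standard error 0.19, 2.22-fold) in U87MGL against U87MG, with a limma adjusted p of 0.0237. The difference for U87MGR against U87MG was 0.79 (1.73-fold, limma adjusted p = 0.0703), and within the shared batch 0.75. The second HBEGF probe set, 38037_at, gave 0.89 in U87MGR against U87MG and 1.30 in U87MGL against U87MG. The dimmer probe sets 244857_at and 222076_at went the other way in U87MGL against U87MG, with differences of -0.38 and -0.42.

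NRG1, neuregulin 1, had nearly the same mean in both derivatives in its brightest probe set. Its log2 signals were 7.93 and 7.79 in U87MGR, 7.58 and 8.19 in U87MGL, and 6.50 and 6.39 in U87MG. Every derivative array was at least 1 log2 unit above both U87MG arrays. NRG1 rose by 1.41 (log2, standard error 0.22, 2.66-fold, limma adjusted p = 0.0294) in U87MGR against U87MG. It rose by 1.44 (standard error 0.22, 2.71-fold, limma adjusted p = 0.0221) in U87MGL against U87MG. Within the shared batch, U87MGR against U87MG gave 1.28. Between the derivatives the difference was -0.03, with a 95% interval of -0.55 to 0.50. NRG1 has many isoforms with different first exons and ends, and its probe sets did not move alike. The probe set 206237_s_at read 7.36 and 6.91 in U87MGR, 8.17 and 7.96 in U87MGL, and 6.24 and 6.52 in U87MG, a difference of 0.76 in U87MGR against U87MG and 1.69 in U87MGL against U87MG. The probe set 208230_s_at had the same order, with differences of 0.38 and 1.24. With 208232_x_at the sign turned, to -0.45 in U87MGR against U87MG and -0.44 in U87MGL against U87MG. In U87MGR against U87MGL, 206237_s_at and 208230_s_at gave -0.93 and -0.86 without overlap, and -0.70 and -0.72 within the shared batch. There 208232_x_at and 208241_at gave -0.01 and 0.22, with overlap. Which transcripts each probe set reads was not analysed here.

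HGF, which MET binds, had log2 signals of 8.94 and 9.15 in U87MGR, 9.34 and 9.02 in U87MGL, and 8.15 and 7.32 in U87MG. The derivatives overlapped each other and lay above U87MG. HGF rose by 1.45 (log2, standard error 0.28, 2.73-fold) in U87MGL against U87MG, with a limma adjusted p of 0.0388. HGF differed in U87MGR against U87MG by 1.31 (2.48-fold, limma adjusted p = 0.0589), and by 1.00 within the shared batch. The other 4 HGF probe sets gave 0.54 to 1.63 in U87MGR against U87MG and 0.58 to 1.83 in U87MGL against U87MG, all above 0.

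PDGFA, the A chain of platelet-derived growth factor, had log2 signals of 7.26 and 7.59 in U87MGR, 7.11 and 7.05 in U87MGL, and 6.44 and 6.52 in U87MG. Here U87MGR was highest, and no group overlapped another. PDGFA rose by 0.94 (log2, standard error 0.17, 1.91-fold) in U87MGR against U87MG, with a limma adjusted p of 0.0384, and within the shared batch the difference was 1.14. PDGFA differed by 0.60 (1.51-fold, limma adjusted p = 0.0988) in U87MGL against U87MG. The only other PDGFA probe set, 216867_s_at, hardly differed, with 0.14 in U87MGR against U87MG and 0.04 in U87MGL against U87MG, so the call rests on 205463_s_at.

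EGFR, the receptor of TGFA and HBEGF, read 11.52 and 11.27 in U87MGR, 11.21 and 11.00 in U87MGL, and 9.21 and 10.72 in U87MG (log2 signals). The derivatives lay above U87MG, and the U87MG arrays had an SD of 1.07, the widest spread of any group among the 10 genes. The differences of 1.43 for U87MGR against U87MG (95% interval 0.40 to 2.46, limma adjusted p = 0.124) and 1.14 for U87MGL against U87MG (limma adjusted p = 0.18) were not called. They depended on which U87MG array was kept. Without U87MG replicate 2, EGFR differed by 2.18 in U87MGR against U87MG (limma adjusted p = 0.0248) and 1.89 in U87MGL against U87MG (limma adjusted p = 0.0245). Without U87MG replicate 1 the differences were 0.68 and 0.39. Within the batch that U87MGR replicate 2 shares with U87MG replicate 1, the difference was 2.06. The other EGFR probe sets gave from -0.08 (211607_x_at) to 0.83 (224999_at) within that batch. The next EGFR probe set, 224999_at, read 10.24 and 10.05 in U87MGR, 9.94 and 9.65 in U87MGL, and 9.23 and 9.43 in U87MG, with the U87MG arrays close together. Its differences were 0.82 in U87MGR against U87MG and 0.47 in U87MGL against U87MG. Beyond 201984_s_at, with 0.61 and 0.60, the other 6 EGFR probe sets gave only 0.18 to 0.36 in U87MGR against U87MG and -0.23 to 0.20 in U87MGL against U87MG.

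MET, the receptor of HGF, had log2 signals of 12.70 and 12.55 in U87MGR, 12.16 and 12.18 in U87MGL, and 11.48 and 11.87 in U87MG. The groups did not overlap and stood in the order U87MGR, U87MGL, U87MG. MET rose by 0.94 (log2, standard error 0.18, 1.92-fold) in U87MGR against U87MG, with a limma adjusted p of 0.0444, and the within-batch difference was 1.06. MET differed by 0.49 (1.4-fold, limma adjusted p = 0.172) in U87MGL against U87MG. The other 3 MET probe sets gave 0.36 to 0.54 for U87MGR against U87MG over all arrays, but -0.17, -0.17 and -0.05 within the shared batch. In U87MGL against U87MG these probe sets gave 0.09, 0.24 and -0.22.

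PDGFRB was the one gene of the 10 that fell in both derivatives. Its single probe set read 7.57 and 7.33 in U87MGR, 8.01 and 7.66 in U87MGL, and 8.78 and 8.82 in U87MG (log2 signals). The groups did not overlap, and U87MGR was lowest. PDGFRB fell by 1.36 on the log2 scale (standard error 0.18, 2.56-fold lower, limma adjusted p = 0.0207) in U87MGR against U87MG, and the within-batch difference was -1.46. It fell by 0.97 (standard error 0.18, 1.95-fold lower, limma adjusted p = 0.0355) in U87MGL against U87MG. PDGFRB is also a pericyte gene, so the 12 endothelial and pericyte markers with a probe set were read beside it. Their summed linear signal was 1237 to 1305 in U87MGR, 1231 to 1369 in U87MGL and 962 to 1659 in U87MG, and 2 of the 12 lay below the filter on dim genes. Of the 10 that could be tested, the potassium channel regulator ABCC9 rose, by 0.91 in U87MGR against U87MG (limma adjusted p = 0.0421) and by 0.83 in U87MGL against U87MG (limma adjusted p = 0.0429), and none fell. The ABCC9 call was lost without any 1 of the 6 arrays, with limma adjusted p from 0.0603 to 0.177 in U87MGR against U87MG and from 0.0586 to 0.309 in U87MGL against U87MG. The mural cell receptor gene NOTCH3 read 7.12 and 7.29 in U87MGR, 7.30 and 7.16 in U87MGL, and 9.46 and 7.57 in U87MG, not called. Without U87MG replicate 2 it was called lower, with differences of -2.25 in U87MGR against U87MG (limma adjusted p = 0.0223) and -2.23 in U87MGL against U87MG (limma adjusted p = 0.0164). Without U87MG replicate 1, CSPG4 and ENG were called higher and CLDN5 lower in both comparisons, and TEK lower in U87MGL against U87MG. None of the 10 was called without any 1 of the derivative arrays or with the spike-in batches as 2 blocks. The pericyte gene RGS5 read 6.79 and 6.71 in U87MGR, 6.14 and 6.73 in U87MGL, and 6.49 and 5.86 in U87MG. The part of host or other mesenchymal cells in the PDGFRB result was not tested.

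PDGFRA, the receptor of PDGFA, was dim. The brightest of its 4 probe sets read 4.06 and 4.16 in U87MGR, 4.84 and 5.01 in U87MGL, and 4.70 and 3.97 in U87MG, with a mean below the 4.73 that a gene needed to be tested. On single arrays, the other 3 read between 3.11 and 3.96. AXL was far above that filter in every group, its groups overlapped in the brightest probe set, and it was called in no comparison. It read 11.15 and 11.51 in U87MGR, 11.56 and 11.24 in U87MGL, and 11.34 and 11.33 in U87MG. Its 95% intervals were -0.52 to 0.39 for U87MGR against U87MGL, -0.46 to 0.45 in U87MGR against U87MG and -0.39 to 0.52 in U87MGL against U87MG. The dimmer AXL probe set 202685_s_at gave 0.42 in U87MGR against U87MG, 0.78 in U87MGL against U87MG and -0.36 in U87MGR against U87MGL, each without overlap.

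Of the 10 genes, 9 had an entry among the RefSeq promoters. The promoters of 4 called genes are shown because these genes changed against U87MG in one or both derivatives and each has a single promoter entry. Each run covers 250 bases before to 50 bases after the annotated start, 5′ to 3′ on the gene's strand, from RefSeq on GRCh38.p14, and capitals mark the GC box GGGCGG or its complement CCGCCC. HBEGF lies at chr5:140346554-140346853 (minus strand), HGF at chr7:81769998-81770297 (minus strand), MET at chr7:116671946-116672245 (plus strand) and PDGFRB at chr5:150155796-150156095 (minus strand).
HBEGF: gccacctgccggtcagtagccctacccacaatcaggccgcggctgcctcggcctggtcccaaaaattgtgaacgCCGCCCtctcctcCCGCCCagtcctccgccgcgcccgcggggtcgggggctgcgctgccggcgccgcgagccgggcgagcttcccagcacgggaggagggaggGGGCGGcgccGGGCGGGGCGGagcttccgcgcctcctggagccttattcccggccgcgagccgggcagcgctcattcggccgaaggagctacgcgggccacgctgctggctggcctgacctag
HGF: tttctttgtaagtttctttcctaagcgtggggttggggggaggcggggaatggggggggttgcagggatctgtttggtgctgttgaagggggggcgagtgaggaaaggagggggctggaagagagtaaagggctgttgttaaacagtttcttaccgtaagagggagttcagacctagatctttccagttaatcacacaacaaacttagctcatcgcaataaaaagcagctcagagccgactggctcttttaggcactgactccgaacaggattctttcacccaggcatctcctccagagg
MET: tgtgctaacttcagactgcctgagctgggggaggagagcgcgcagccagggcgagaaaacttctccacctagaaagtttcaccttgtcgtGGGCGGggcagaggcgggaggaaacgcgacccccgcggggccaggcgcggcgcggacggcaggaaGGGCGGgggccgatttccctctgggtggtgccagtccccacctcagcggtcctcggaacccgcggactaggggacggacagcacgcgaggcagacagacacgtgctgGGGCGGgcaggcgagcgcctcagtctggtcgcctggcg
PDGFRB: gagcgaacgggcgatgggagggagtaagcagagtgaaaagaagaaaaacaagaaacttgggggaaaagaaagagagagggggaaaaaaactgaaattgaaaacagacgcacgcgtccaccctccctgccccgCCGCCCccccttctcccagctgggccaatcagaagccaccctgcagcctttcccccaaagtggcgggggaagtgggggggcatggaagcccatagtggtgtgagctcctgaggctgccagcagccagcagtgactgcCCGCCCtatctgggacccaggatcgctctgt
The HBEGF window holds 5 GC boxes, of which a pair overlaps, at a GC content of 75.0%. MET has 3 at 69.3%, PDGFRB has 2 at 59.3% and HGF has 0 at 51.0%. Both strands were searched, and 45.0% of all 35116 promoter windows of this length hold at least 1 GC box. None of the 4 windows holds the AP-1 motif TGANTCA, the TATA motif TATAAA or the cyclic AMP element TGACGTCA, which are in 7.71%, 11.5% and 1.85% of all windows. These are matches of letters and say nothing of factors bound.

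Of the 10 genes, 9 were bright enough to be tested, all but PDGFRA. Calls were made at a limma adjusted p under 0.05 over all 14513 genes tested. The invasive line was first set against the non-invasive one, the contrast the study was built on. None of the 9 was called in U87MGR against U87MGL, where 0.158% of all tested genes were, 0.0413% higher and 0.117% lower. MET, higher in U87MGR, was the 1 of the 9 with an unadjusted limma p under 0.05, beside 3.91% of all tested genes higher and 4.94% lower at that level. The largest differences were 0.45 for MET (95% interval 0.02 to 0.88, limma adjusted p = 0.54), -0.66 for TGFA (95% interval -1.64 to 0.31), -0.39 for PDGFRB (95% interval -0.82 to 0.04), -0.36 for HBEGF (95% interval -0.80 to 0.08) and 0.34 for PDGFA (95% interval -0.06 to 0.75). EGFR differed by 0.29 (95% interval -0.73 to 1.32) and HGF by -0.13 (95% interval -0.80 to 0.54). Within the shared batch the values were 0.53 for MET, -0.36 for TGFA, -0.27 for PDGFRB, -0.45 for HBEGF, 0.18 for PDGFA, 0.41 for EGFR and -0.24 for HGF, each with the sign it had over all arrays. NRG1 turned from -0.03 over all arrays to 0.04 in that batch, and AXL went from -0.07 to -0.25. The within-batch values set U87MGR replicate 1 alone against the same U87MGL arrays, so they are no separate data. A missing call in such wide intervals does not show that the lines are alike. MET, PDGFA and EGFR were higher on both U87MGR arrays than on both U87MGL arrays, and HBEGF and PDGFRB were lower. Such separation occurred in 23.3% of all tested genes in each direction. Other probe sets turned the sign in this contrast: HBEGF 244857_at gave 0.39 and HGF 210755_at 0.27, both without overlap, and NRG1 208241_at 0.22.

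The differences against the parental line were larger. In U87MGR against U87MG, 3 of the 9 rose (MET, NRG1 and PDGFA) and 1 fell (PDGFRB), where 3.3% of all tested genes were called, 1.86% higher and 1.44% lower. In U87MGL against U87MG, 4 rose (TGFA, HBEGF, NRG1 and HGF) and PDGFRB fell, where 4.82% of all tested genes were called, 3.02% higher and 1.8% lower. At an unadjusted limma p under 0.05, 7 of the 9 were higher and 1 lower in each of these comparisons, where 11.0% of all tested genes were higher and 9.78% lower in U87MGR, and 13.2% higher and 10.1% lower in U87MGL. The comparisons share the U87MG arrays, so the same parental signals enter both. The median log2 difference over the 9 genes was 0.94 in U87MGR against U87MG and 1.14 in U87MGL against U87MG, beside -0.01 and -0.02 over all genes tested. In U87MGR against U87MGL it was -0.07, beside 0.00. In both comparisons with U87MG, 7 of the 9 genes were higher on every derivative array, 1 was lower and AXL overlapped, where 24.2% of all tested genes in U87MGR and 28.1% in U87MGL lay above U87MG without overlap, and 24.2% and 28.3% below. Whether any of these genes differs between the derivatives in its change against U87MG is the U87MGR against U87MGL contrast itself, which called none of the 9. Thus MET and PDGFA, called in U87MGR only, and TGFA, HBEGF and HGF, called in U87MGL only, are not shown to differ between the lines.

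**Figure D2:**
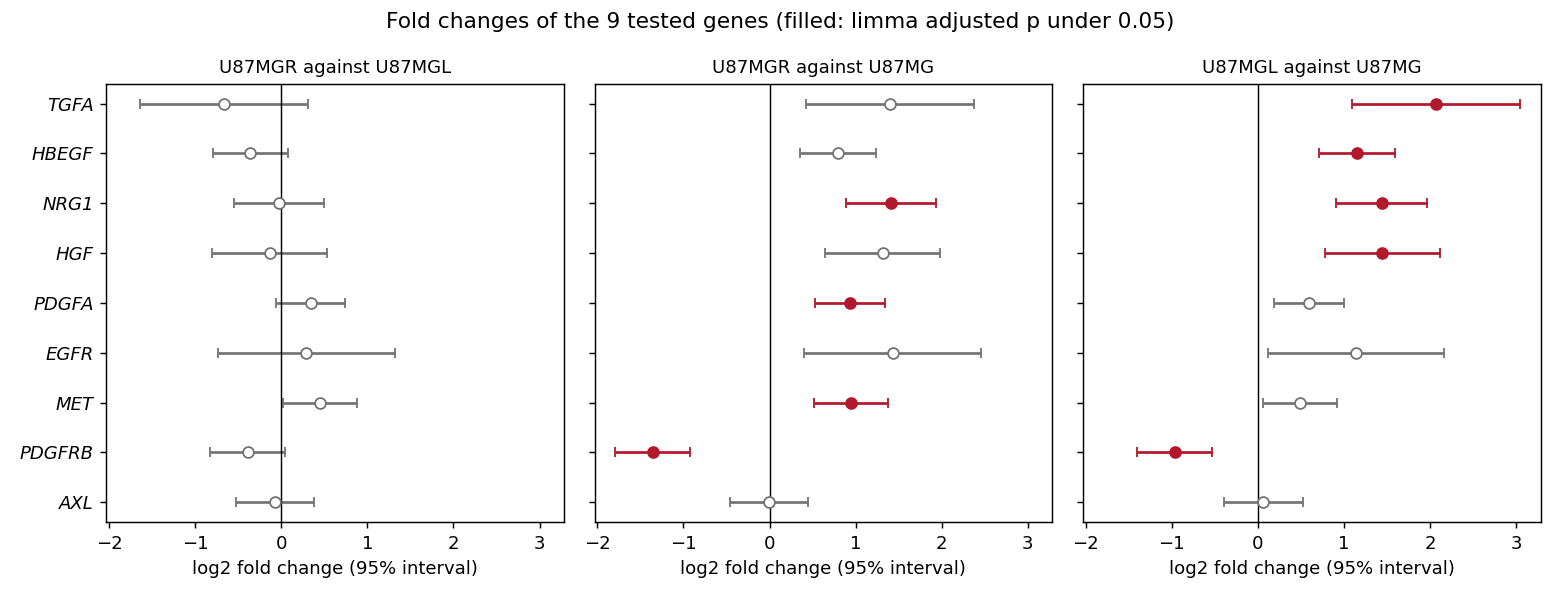
Log2 fold change with its 95% interval (horizontal axis) for each of the 9 tested genes in the 3 comparisons. Filled points are called at a limma adjusted p under 0.05. In both comparisons with U87MG 7 genes lie right of 0, PDGFRB lies left and AXL sits at 0, while all intervals but that of MET cross 0 in U87MGR against U87MGL.

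With 2 arrays a group, most calls were lost in some fits that leave out 1 array. Leaving out either array of the group not compared gives the same fit, equal to that of the 2 groups alone. The difference then stays as it was, and only its error estimate changes. The PDGFRB call in U87MGR against U87MG held without any 1 U87MG or U87MGL array and was lost without either U87MGR array. Its difference was -1.48 to -1.24 over the fits that leave out 1 array. The NRG1 call in the same comparison was lost without either U87MGR array (limma adjusted p = 0.136 and 0.164) or U87MG replicate 2 (limma adjusted p = 0.0695). MET was lost in all such fits but that without U87MG replicate 2, with limma adjusted p from 0.0579 to 0.19. PDGFA was lost in all 6 (limma adjusted p from 0.057 to 0.199), and HGF was gained without U87MG replicate 1 (limma adjusted p = 0.0218). In U87MGL against U87MG, TGFA, HBEGF, HGF and PDGFRB kept their calls only without U87MG replicate 1. The limma adjusted p was otherwise 0.0568 to 0.22 for TGFA, 0.0573 to 0.176 for HBEGF, 0.0672 to 0.173 for HGF and 0.069 to 0.258 for PDGFRB. NRG1 kept its call there without U87MG replicate 1 or U87MGL replicate 1, with limma adjusted p of 0.0573 to 0.123 otherwise. The signs of TGFA, HBEGF, PDGFA, EGFR, MET and PDGFRB stayed the same in all 14 other fits of every comparison, as did those of NRG1 and HGF against U87MG. Several of these 14 are the same fit for a given comparison, so they are not separate support. Taking the spike-in batches as 2 blocks joins U87MG replicate 2 to the batch of U87MG replicate 1 and U87MGR replicate 2. U87MGR against U87MG is then the fit without U87MGR replicate 1, and U87MGR against U87MGL that without U87MGR replicate 2. U87MGL and U87MG are compared only through single U87MGR arrays. The calls against U87MG were lost there, and for U87MGR this is no check separate from leaving out an array.

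Over all 34 probe sets of these genes above the filter, the difference was above 0 in 31 for U87MGR against U87MG, in 28 for U87MGL against U87MG and in 18 for U87MGR against U87MGL. Without overlap between groups, 18 were higher and 1 lower in U87MGR against U87MG, 21 higher and 3 lower in U87MGL against U87MG, and 10 higher and 8 lower in U87MGR against U87MGL. Of all tested genes, by their brightest probe sets, 49.4%, 48.1% and 50.3% lay above 0 in the same order. Without overlap, 24.2% of them were higher and 24.2% lower in U87MGR against U87MG. These shares were 28.1% and 28.3% in U87MGL against U87MG, and 23.3% in each direction in U87MGR against U87MGL. Probe sets of a gene share its RNA and are no replicates. All HGF and TGFA probe sets had differences above 0 in both comparisons with U87MG, and NRG1 had probe sets above the filter on both sides of 0 in each of them.

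**Figure D3:**
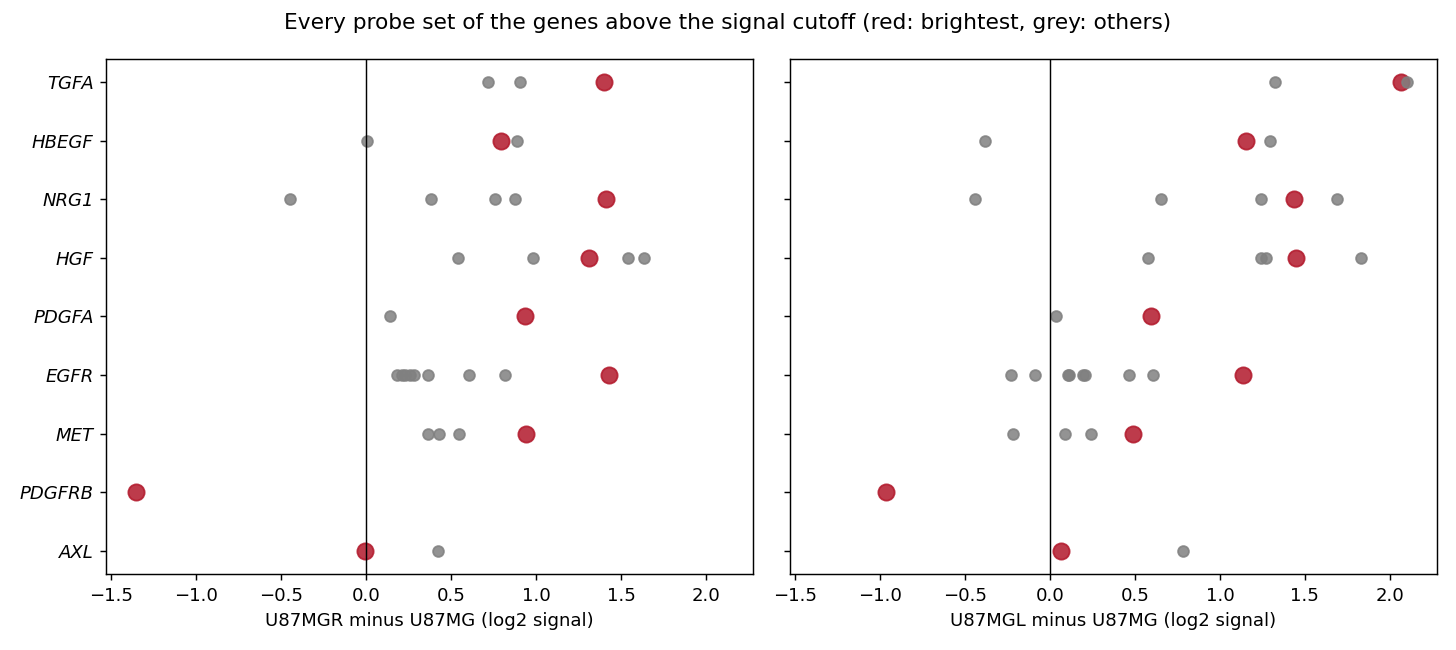
Log2 difference of group means (horizontal axis) for each probe set above the filter, in U87MGR against U87MG and in U87MGL against U87MG, with the brightest probe set of each gene in red and the others in grey. All 5 HGF and all 3 TGFA probe sets lie right of 0 against U87MG, and NRG1 has 1 probe set above the filter left of 0.

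EGFR, HGF, MET and PDGFA lie on chromosome 7, whose genes as a group were brighter in U87MGR. The median log2 difference of its 680 tested genes was 0.21 in U87MGR against U87MGL, with 76.3% above 0, beside 50.3% of all tested genes. For U87MGR against U87MG the median was 0.24, with 70.9% above 0 beside 49.4%, and within batches the 2 medians were 0.21 and 0.25. For U87MGL against U87MG it was 0.01, with 51.5% above 0 beside 48.1%. Of the 680 genes, 52 were called higher and 1 lower in U87MGR against U87MG, beside 270 and 209 of all 14513 tested genes. In U87MGL against U87MG 31 were called higher and 5 lower, beside 438 and 261. The number of copies of chromosome 7 was not measured, and its part in these results was not tested. Centring on the chromosome's median, an alternative chosen after seeing the data, left differences in U87MGR against U87MGL of 0.24 for MET, 0.13 for PDGFA, 0.08 for EGFR and -0.34 for HGF. Of the 680 genes, 155 had a higher fold change than MET in that comparison, 226 than PDGFA, 267 than EGFR and 591 than HGF. Centred in this way, U87MGR against U87MG gave 1.19 for EGFR, 1.07 for HGF and 0.70 for both MET and PDGFA, and from 15 genes (EGFR) to 65 genes (PDGFA) of the chromosome had a higher fold change. The values for U87MGL against U87MG were 1.43 for HGF, 1.12 for EGFR, 0.58 for PDGFA and 0.47 for MET. Of the other genes described, PDGFRB and HBEGF lie on chromosome 5 and TGFA, NRG1, PDGFRA and AXL on chromosomes 2, 8, 4 and 19.

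**Figure D4:**
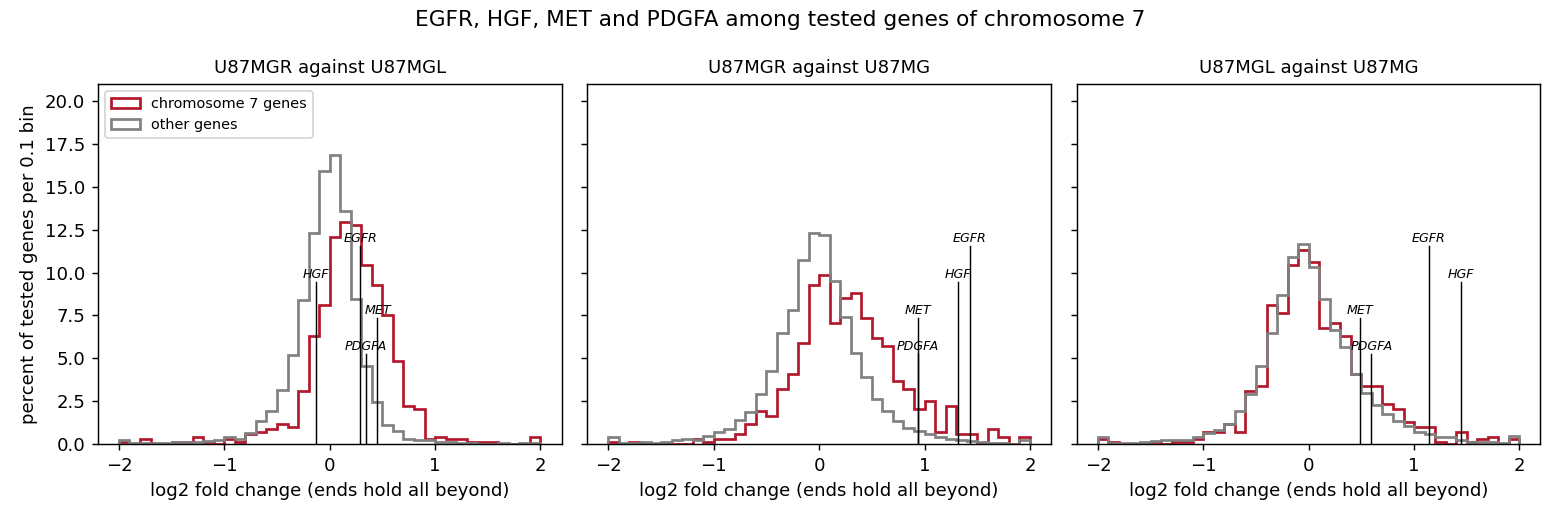
Share of tested genes (vertical axis, percent per bin of 0.1) by log2 fold change (horizontal axis), for the 680 genes of chromosome 7 in red and all other genes in grey, with EGFR, HGF, MET and PDGFA marked. The medians are 0.21 in U87MGR against U87MGL, 0.24 in U87MGR against U87MG and 0.01 in U87MGL against U87MG, and all 4 marked genes lie right of the median in both comparisons with U87MG.

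The genes whose profiles over the 6 arrays were nearest to those of the called genes were found by the root mean square difference of log2 signals, each gene centred on its own mean, among the 14512 other tested genes. MET was nearest to NT5C3A (0.10), CROT (0.10) and COPS6 (0.11), all on chromosome 7. For PDGFA they were MAP1A (0.06), UTP20 (0.08) and FAM221A (0.08), of which FAM221A lies on chromosome 7, and MET and PDGFA themselves were 0.17 apart. PDGFRB was nearest to the Wnt receptor gene FZD2 (0.05), then FCMR (0.09) and CPQ (0.10). NRG1 had NCAPG, a condensin subunit of mitotic chromosomes, at 0.11, and TRAPPC10 and TRIP13 both at 0.14. Near HGF stood SETBP1 (0.15), CDK5R1 (0.16) and SKA1 (0.16). TGFA had LRRC8C (0.21), AP1S3 (0.21) and ANGPTL4 (0.22), and HBEGF had SPAG1, APBB2 and LINC01711, all at 0.10. With 6 arrays these are descriptions of likeness over the same samples.

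Genes that work around these receptors were read from 10 lists, 130 tested genes in all. No gene of any list was called in U87MGR against U87MGL, where 7.69% of them had an unadjusted p under 0.05, beside 8.85% of all tested genes. Of the 130, 2 rose and 2 fell in U87MGR against U87MG, and in U87MGL against U87MG 5 rose and 3 fell. These are 3.08% and 6.15% of the list genes, beside 3.3% and 4.82% of all genes tested. The other ErbB receptors and ligands had no call among 5 tested genes. The largest differences there were 0.52 for the EGFR ligand betacellulin (BTC) in U87MGR against U87MG and 0.41 for epiregulin (EREG) in U87MGL against U87MG, and their medians were 0.07 and 0.20. The 10 shedding genes, which release or cut membrane-bound ligands, had none called either. The metalloprotease ADAM12 differed by 0.82 and the tetraspanin CD9 by 0.63 in U87MGL against U87MG, and the median there was 0.19. The rhomboid protease RHBDL2 differed by -0.50 and ADAM10 by -0.41 in U87MGR against U87MG, with a median of 0.02.

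Among 10 genes that activate HGF or partner MET, PLAU was called, the urokinase that turns plasminogen into plasmin and can cleave pro-HGF. It had log2 signals of 11.71 and 11.72 in U87MGR, 11.22 and 12.38 in U87MGL, and 9.82 and 9.70 in U87MG. All derivative arrays were above both U87MG arrays. PLAU rose by 1.95 (standard error 0.34, 3.87-fold, limma adjusted p = 0.0357) in U87MGR against U87MG and by 2.04 (4.11-fold, limma adjusted p = 0.0258) in U87MGL against U87MG. The medians of that list were 0.03 and 0.19. The 8 other PDGF genes had no call, with -1.07 for the proprotein convertase PCSK5 in U87MGR against U87MG and 1.01 for PLAT, the plasminogen activator that can process PDGF-CC, in U87MGL against U87MG. Of the 3 other TAM genes, the AXL-family ligand PROS1 fell by 1.60 (3.02-fold lower, limma adjusted p = 0.0454) in U87MGL against U87MG. PROS1 differed by -0.78 (limma adjusted p = 0.241) in U87MGR against U87MG.

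Of 19 other receptor tyrosine kinases, PTK7, a catalytically inactive receptor of the planar polarity pathway, was the one called. It read 5.76 and 6.39 in U87MGR, 5.95 and 6.24 in U87MGL, and 7.69 and 7.25 in U87MG (log2 signals), lower on all derivative arrays. PTK7 fell by 1.39 (2.62-fold lower, limma adjusted p = 0.0419) in U87MGR against U87MG and by 1.37 (2.59-fold lower, limma adjusted p = 0.0355) in U87MGL against U87MG. Of 15 other receptor ligands, FGF5 rose by 1.17 (2.25-fold, limma adjusted p = 0.03) and the KIT ligand KITLG fell by 1.25 (2.38-fold lower, limma adjusted p = 0.0496) in U87MGL against U87MG. None of the 15 was called in U87MGR against U87MG, where FGF2 differed by 1.25 and FGF18 by -1.14. The adaptors and kinases below the receptors, 23 genes, had 1 call in U87MGR against U87MG and none in U87MGL against U87MG. NCK2, an adaptor between phosphotyrosines and actin regulators, read 7.64 and 7.04 in U87MGR, 8.62 and 8.85 in U87MGL, and 9.08 and 8.56 in U87MG. It fell by 1.48 (2.79-fold lower, limma adjusted p = 0.037) in U87MGR against U87MG, and U87MGR against U87MGL gave -1.40 (limma adjusted p = 0.149). U87MGL and U87MG overlapped, with a difference of -0.08.

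Among 18 genes that switch receptors off, the phosphatase gene PTPN1 rose by 0.77 (1.71-fold, limma adjusted p = 0.0474) in U87MGL against U87MG, and none was called in U87MGR against U87MG. The EGFR inhibitor ERRFI1 differed by 1.31 in U87MGL against U87MG and by -1.34 in U87MGR against U87MGL, neither called. The 19 genes that MAP kinase activity is known to induce had the highest medians of the 10 lists over all arrays, 0.42 in U87MGR against U87MG and 0.27 in U87MGL against U87MG, with 16 and 15 of 19 above 0. Leaving out U87MG replicate 2, also chosen after seeing the data, brought these medians to 0.16 and 0.14, below those of the other receptor ligands in U87MGR (0.25) and of the other ErbB genes in U87MGL (0.17). Leaving out U87MG replicate 1 brought them to 0.57 and 0.54. EPHA2, an ephrin receptor in that list, read 8.66 and 8.95 in U87MGR, 8.65 and 9.31 in U87MGL, and 7.07 and 5.72 in U87MG. It rose by 2.41 (standard error 0.43, 5.3-fold, limma adjusted p = 0.0373) in U87MGR against U87MG and by 2.58 (5.97-fold, limma adjusted p = 0.0258) in U87MGL against U87MG. The ETS factor gene ETV5 rose by 0.85 (1.81-fold, limma adjusted p = 0.0489) in U87MGL against U87MG. The feedback inhibitor SPRY4 read 8.43 and 8.92 in U87MGR, 7.53 and 8.57 in U87MGL, and 7.68 and 6.02 in U87MG, and was not called. With the spike-in batches taken as 2 blocks, no gene of any list was called in any comparison, and 19 in U87MGR against U87MG and 9 in U87MGL against U87MG had an unadjusted p under 0.05, which is 14.6% and 6.92% of them beside 17.3% and 8.52% of all tested genes.

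The calls of list genes were also lost in fits that leave out 1 array, some of which keep the difference as it was. PTK7 was lost without any 1 of the 6 arrays, with limma adjusted p from 0.0573 to 0.157 in U87MGR against U87MG and from 0.0549 to 0.164 in U87MGL against U87MG. ETV5 and PTPN1 were likewise lost in all 6 such fits (limma adjusted p from 0.0696 to 0.244 and from 0.0614 to 0.273). Among the calls in U87MGR against U87MG, EPHA2 held only without U87MG replicate 1, NCK2 only without U87MG replicate 2 and PLAU only without either U87MGL array, with limma adjusted p otherwise from 0.0513 to 0.223, from 0.0596 to 0.197 and from 0.0554 to 0.202. Among those in U87MGL against U87MG, EPHA2 held only without either U87MG array, KITLG only without U87MG replicate 1, and PLAU, FGF5 and PROS1 without U87MG replicate 1 or U87MGL replicate 1. Their limma adjusted p was otherwise 0.0599 to 0.157 for EPHA2, 0.0715 to 0.298 for KITLG, 0.0692 to 0.0816 for PLAU, 0.0692 to 0.189 for FGF5 and 0.0953 to 0.201 for PROS1. Without U87MG replicate 1, 5 list genes were called higher and 1 lower in U87MGR against U87MG (4.62% of them beside 6.04% of all tested genes), of which EPHA2 alone was among the 4 called over all arrays. In U87MGL against U87MG 10 were higher and 8 lower in that fit (13.8% beside 10.7%). Without either U87MGR array, 0 were called in both comparisons, with 14.6% to 16.2% at an unadjusted limma p under 0.05, beside 14.1% to 21.9% of all tested genes.

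**Figure D5:**
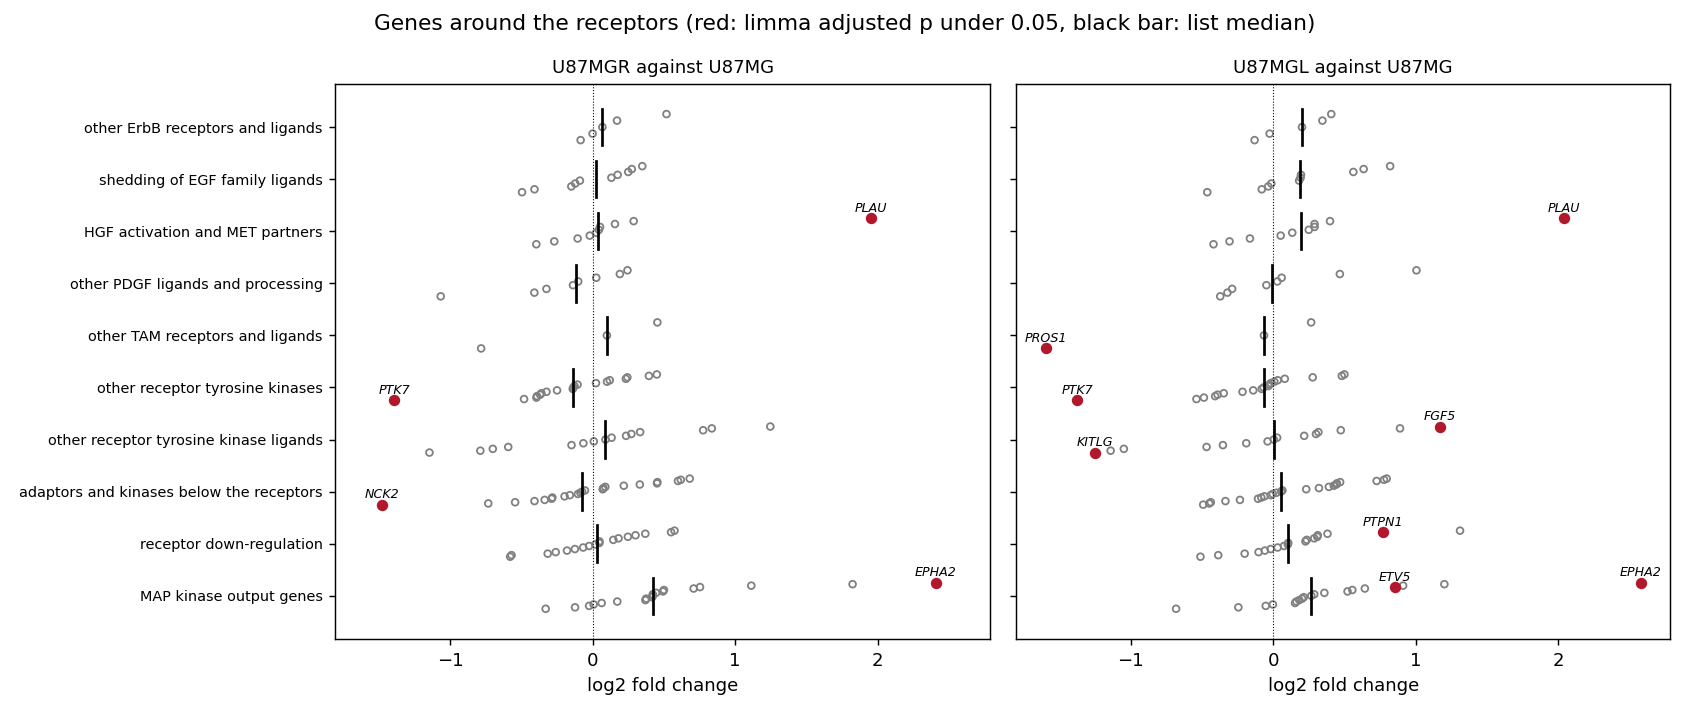
Log2 fold change (horizontal axis) of each tested gene of the 10 lists in the comparisons with U87MG, with the median of a list as a black bar and called genes filled in red. The medians lie between -0.13 and 0.42, and EPHA2 and PLAU stand farthest right in both comparisons.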

How the data were processed

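Total RNA of 6 cultures was measured on single-colour arrays, 2 per group. The authors deposited log2 signals of 54675 probe sets, already on a common scale by a method not given in the sources used here, and no normalization was added. Probe sets were named through the platform table: 41097 carried 1 gene symbol, of which 99.9% matched RefSeq by gene number, 1801 several, none of them one of the 10 genes, and 11777 none. A gene was its brightest 1-symbol probe set, tested where its mean was at least 4.73, the 40th percentile over probe sets, which left 14513 of 19775 genes.

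One limma model (3.58.1, R 4.3.3) with a mean per group was fitted to all 6 arrays, with 3 residual and 4.05 prior degrees of freedom, and checked on simulated data. Standard errors of the log2 fold changes had a median of 0.19, and the number of arrays limits the precision. P-values are two-sided and Benjamini-Hochberg adjusted over all genes tested, with calls under 0.05. Replicate numbers were not treated as pairs: deviations of equally numbered arrays correlated across genes at 0.01, 0.11 and -0.09 in the 3 pairs of groups.

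The genes, lists and tests were chosen with earlier results of these data known. All 10 genes are named. For the 10 lists and the endothelial and pericyte markers, up to 2 highest and 2 lowest called genes are named per comparison. Where none was called, up to 2 with the largest differences are named. The other marker lists are given as sums, and the called astrocyte marker is not named. RGS5, NOTCH3, CSPG4, ENG, CLDN5, TEK, ERRFI1 and SPRY4 were chosen after their values were seen. For each called gene the 3 most alike genes are named. List entries without a 1-symbol probe set were not analysed here. Alternatives were other filters, probe set rules, normalization and variance models, fewer arrays, and the replicate or spike-in batch as a block.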

Additional observations from a re-analysis of the deposited data

How the results depend on the processing

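Of the 9 tested genes, 0 were called in U87MGR against U87MGL under every alternative. In fits keeping both arrays of the compared groups, 0 to 2 had an unadjusted limma p under 0.05. The share of all tested genes at that level was 3.89% to 12.1% in these fits. In U87MGR against U87MG the 4 calls became 1 with the mean of all probe sets of a gene (PDGFRB), 2 with only the 2 groups compared, and 0 with the spike-in batches as 2 blocks. In the fit with 2 blocks, 6 had an unadjusted limma p under 0.05, beside 17.3% of all tested genes. With 3 blocks, a fit that drops U87MG replicate 2, there was 1 (EGFR). In U87MGL against U87MG the 5 calls became 2 with the mean of probe sets (NRG1 and PDGFRB), and 0 with only the 2 groups compared and with 2 blocks. In the latter 2 fits 7 and 5 had an unadjusted limma p under 0.05, beside 21.9% and 8.52% of all tested genes. Leaving out 1 array changed the calls in both comparisons with U87MG, as given above gene by gene, and kept the signs of the called genes. Other filters, quantile normalization and another variance prior kept these counts within 1.5 times. The samples share only a replicate number: with the replicate block there were 2 calls in U87MGR against U87MG (NRG1 and PDGFRB) and 4 in U87MGL against U87MG, where TGFA had a limma adjusted p of 0.0546.

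Over all genes, U87MGR against U87MGL had 23 calls, 40 with no filter, 15 with the mean of probe sets, 4 with 2 blocks, 0 with 3 blocks (1169 at an unadjusted p under 0.05 by limma) and 3 to 34 without 1 array. U87MGR against U87MG had 479, then 233 with only the 2 groups, 11 and 231 with 2 and 3 blocks, and 1 to 877 without 1 array. U87MGL against U87MG had 699, then 215 with only the 2 groups, 0 with either block (1236 and 2226 at an unadjusted p by limma), and 37 to 1550 without 1 array. The fits with fewer arrays or more terms have fewer degrees of freedom; otherwise the cause was not tested. Signs turned for differences near 0. NRG1 in U87MGR against U87MGL gave 0.033 with quantile normalization, 0.043 with either block and -0.33 to 0.28 without 1 array. Its lowest value over the 14 other fits was -0.42. HGF in that comparison gave -0.29 to 0.026 without 1 array and AXL -0.25 to 0.11. AXL in U87MGR against U87MG gave 0.21 with the mean of probe sets, 0.041 with quantile normalization, 0.18 and 0.17 with 2 and 3 blocks, and -0.18 to 0.18 without 1 array, and in U87MGL against U87MG it gave -0.10 to 0.22. Among other probe sets, NRG1 208232_x_at turned to -0.45 in U87MGR against U87MG and -0.44 in U87MGL against U87MG, and HBEGF 244857_at and 222076_at to -0.38 and -0.42 in U87MGL against U87MG. Signs that differ from the brightest probe set, against U87MG and where that one was not called, were also seen for HBEGF 222076_at in U87MGR (-0.44), and for EGFR 1565483_at (-0.23), EGFR 1565484_x_at (-0.09) and MET 213816_s_at (-0.22) in U87MGL. In U87MGR against U87MGL the sign turned for HBEGF 244857_at (0.39), HGF 210755_at (0.27) and NRG1 208241_at (0.22).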
